A study of Mus musculus with 8 samples.

Results

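The 10 genes described here, Sycp1, Sycp2, Sycp3, Hormad1, Ddx4, Tdrd1, Dazl, Piwil2, Mael and Stk31, act in meiosis or in the piRNA pathway of germ cells. They were taken by symbol, and all 10 were found among the 43346 genes counted in 8 RNA-seq libraries of mouse embryonic stem cells. The series asks how TRIM71, a repressor of messenger RNAs in early embryos and pluripotent cells, acts on Mbnl1, the gene of a splicing regulator. All cells had a mixed 129xC57BL/6 background and carried Cre-ERT2, a Cre recombinase activated by tamoxifen, and the biotin ligase BirA-V5 at Rosa26. They were grown on gelatin in serum with LIF. The groups, of 2 libraries each, were this line with no further change (wild type), the line with both Trim71 copies disrupted (TRIM71-/-, the knockout), the line with both Mbnl1 copies mutated in the 3'UTR (the mutant), and the line stably transfected with MBNL1::T2A::Puromycin (overexpression). The sources used here give neither the promoter of that construct nor whether the libraries of a group came from separate clones or cultures. Clone and genotype therefore cannot be told apart, and a p-value here covers only how far libraries of one group differ, which may be technical.

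In meiosis, germ cells build a protein axis along each chromosome and then zip the paired axes together into the synaptonemal complex. In parallel, PIWI proteins loaded with piRNAs silence transposons from granules called nuage. Embryonic stem cells do neither, and many promoters of such genes are known to be repressed there by DNA methylation and by the repressor complex PRC1.6. That complex recognizes an E-box through MGA and MAX and an E2F motif through E2F6 and TFDP1.

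The genes were chosen by symbol and not by promoter sequence. The motifs searched, however, are those of PRC1.6, named above as a repressor of many such promoters. Genes and motifs were also both chosen with earlier results of these data known. The shares below therefore describe the windows and are not a test. RefSeq windows on GRCm38.p6, running from 250 bases before to 50 bases after the annotated start, were held for 9 of the 10. The E-box CACGTG, which reads the same on both strands, was found in 7 of those 9 windows (77.8%). Of the windows of all 27025 genes, 7.24% held it. Of the 10726 windows with a CpG count as high as in these genes (10 to 38 per window), 11% held it. The E2F motif, searched as TCCCGC or GCGGGA so that both strands were covered, was found in 5 of 9 windows (55.6%), against 20.1% of all windows and 38% of those in the same CpG range. The 5 windows with an E2F motif, those of Sycp1, Sycp3, Hormad1, Ddx4 and Mael, also held an E-box, a combination seen in 2.05% of all windows and 4.05% of those in the CpG range. Tdrd1 and Stk31 held an E-box alone, no match overlapped another, and the windows of Sycp2 and Dazl held neither motif. The windows had a median of 24 CpG, against 7 for all genes. The fragments below show, 5′ to 3′ on the strand of the gene, matches that lie before the start of 5 of the genes. Capitals mark the E-box or the E2F motif. Other matches, among them those of Ddx4 and Tdrd1, are not shown. Some of these genes rose in the knockout and others fell, and the part of the motifs in these changes was not tested.
Sycp1 E-box at chr3:102936177-102936206, minus strand: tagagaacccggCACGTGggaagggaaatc
Sycp3 E-box at chr10:88459532-88459561, plus strand: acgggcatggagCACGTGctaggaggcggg
Hormad1 E-box at chr3:95559645-95559674, plus strand: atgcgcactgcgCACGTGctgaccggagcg
Mael E-box at chr1:166238950-166238979, minus strand: taccaggcctacCACGTGacaatccccgcc
Stk31 E-box at chr6:49395472-49395501, plus strand: aggccggccaccCACGTGaccagggctgcg
Sycp3 E2F motif at chr10:88459428-88459457, plus strand: aaggaaggaacaGCGGGAaagtgctgcttc
Hormad1 E2F motif at chr3:95559570-95559599, plus strand: gcgcagcttttgGCGGGAatagtggtctgg
A match is a string of letters in a window and not a measured binding site.

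**Figure D1:**
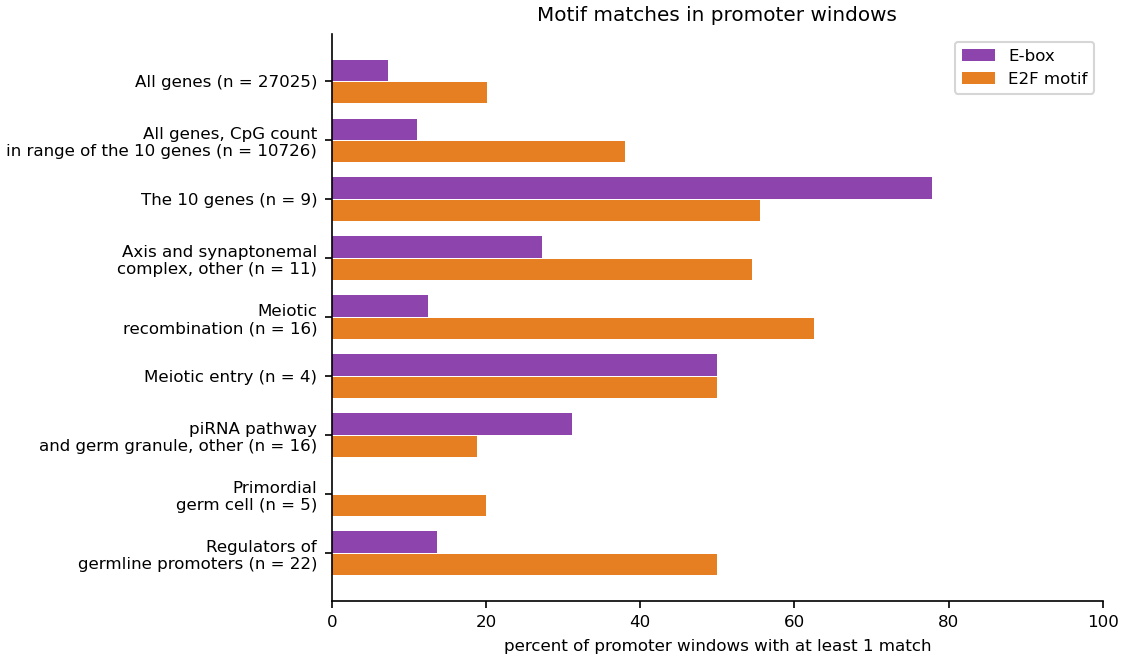
Percent of promoter windows (x axis) with at least 1 E-box or E2F match for all genes, for genes in the same CpG range, for the 10 genes and for 6 related gene lists (y axis, with the number of windows). The 10 genes have the longest E-box bar drawn, 77.8% of 9 windows, and the recombination genes the longest E2F bar, 62.5% of 16 windows.

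Other germline lists were searched in the same way. The E-box was found in 3 of 11 windows (27.3%) of the other axis and synaptonemal complex genes, in 2 of 16 (12.5%) of the recombination genes, in 2 of 4 (50%) of the meiotic entry genes and in 5 of 16 (31.2%) of the other piRNA genes. It was in 0 of 5 windows of the primordial germ cell genes and in 3 of 22 (13.6%) of the genes that regulate germline promoters. The E2F motif was found in 6 of 11 (54.5%), 10 of 16 (62.5%), 2 of 4 (50%), 3 of 16 (18.8%), 1 of 5 (20%) and 11 of 22 (50%) windows of these lists, in the same order. These shares are descriptions, and differences between them were not tested.

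Library totals ran from 75056306 to 86508533 counts, and a single count equalled 0.0112 to 0.0133 CPM (the count relative to the library total as scaled by TMM). Correlations of log CPM were 0.9954 to 0.9965 within groups and 0.9768 to 0.9934 between groups. Trim71 stood at 630 and 628 CPM in wild type and at 101 and 105 CPM in the knockout, and Mbnl1 at 25.9 and 26.1 CPM in wild type and at 193 and 195 CPM in overexpression, in the direction of the labels. Mbnl1 was also at 48.8 and 50.9 CPM in the knockout and at 28.6 and 27.4 CPM in the mutant. The 7 embryonic stem cell markers summed to 3690 to 4660 CPM, highest in the knockout (4630 and 4660). The 8 spermatid markers summed to 0.0363 to 0.223 CPM and none passed the filter on low counts, with 7 of 8 under 0.1 CPM in every library. Of the 8 oocyte markers 5 were under 0.1 CPM in every library, and their sum ran from 1.31 to 2.0 CPM. The 8 2-cell-like markers were each under 0.1 CPM in every library. The 8 feeder fibroblast markers summed to 4.93 and 5.29 CPM in the libraries of wild type, 8.62 and 9.37 in those of the knockout, 5.55 and 5.25 in those of the mutant and 8.38 and 7.76 in overexpression. These markers did not move together. In overexpression Thy1 was higher (4.23 and 4.11 CPM, against 2.51 and 2.35 in wild type), as were Pdgfrb and Col1a1. Col1a2 (0.0558 and 0.0691 CPM, against 0.139 and 0.371) and Col3a1 (0.0446 and 0.0115, against 0.405 and 0.212) were lower there. The other 3 were under 0.1 CPM in every library. Markers of testis and ovary somatic cells summed to 2.65 to 5.24 CPM. The sum of the 8 primitive endoderm markers was 45.4 and 51.8 CPM in the libraries of wild type and 24.9 and 25.9 in those of the knockout. It was 62.1 and 74.7 CPM in those of the mutant and 33.7 and 27 in overexpression. Within that sum Foxa2 was higher in the knockout (17.8 and 18 CPM, against 4.26 and 2.94 in wild type), while the other markers were lower there. The part of these marker differences in the results below was not tested, and in bulk RNA fewer expressing cells cannot be told apart from less RNA per cell.

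All 10 genes passed the filter on low counts, with 114 to 4921 counts per gene and library. Scaled per kb of exon, wild-type levels spanned a wide range. Ddx4 had the highest level, 11.4 CPM per kb, followed by Piwil2 at 6.48 CPM per kb. Stk31 (2.7 CPM per kb), Sycp3 (2.43), Hormad1 (2.19), Mael (1.84), Dazl (1.55) and Tdrd1 (1.35) lay in between. Sycp1 was at 0.897 CPM per kb and Sycp2 lowest at 0.32 CPM per kb. Over all libraries, Ddx4 and Piwil2 lay at percentiles 78.6 and 70.1 of the 17909 tested genes with a length, whose median was 2.5 CPM per kb, and Sycp2 at percentile 23.9. The transcripts of a Vasa helicase and of a PIWI protein were thus above the median tested gene in these libraries, as were those of Stk31 (percentile 55.1) and Hormad1 (50.7). Mael lay at it (50.0). Sycp3 (45.8), Dazl (43.7), Tdrd1 (39.2), Sycp1 (34.0) and Sycp2 were below it, so the levels did not divide by role.

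**Figure D2:**
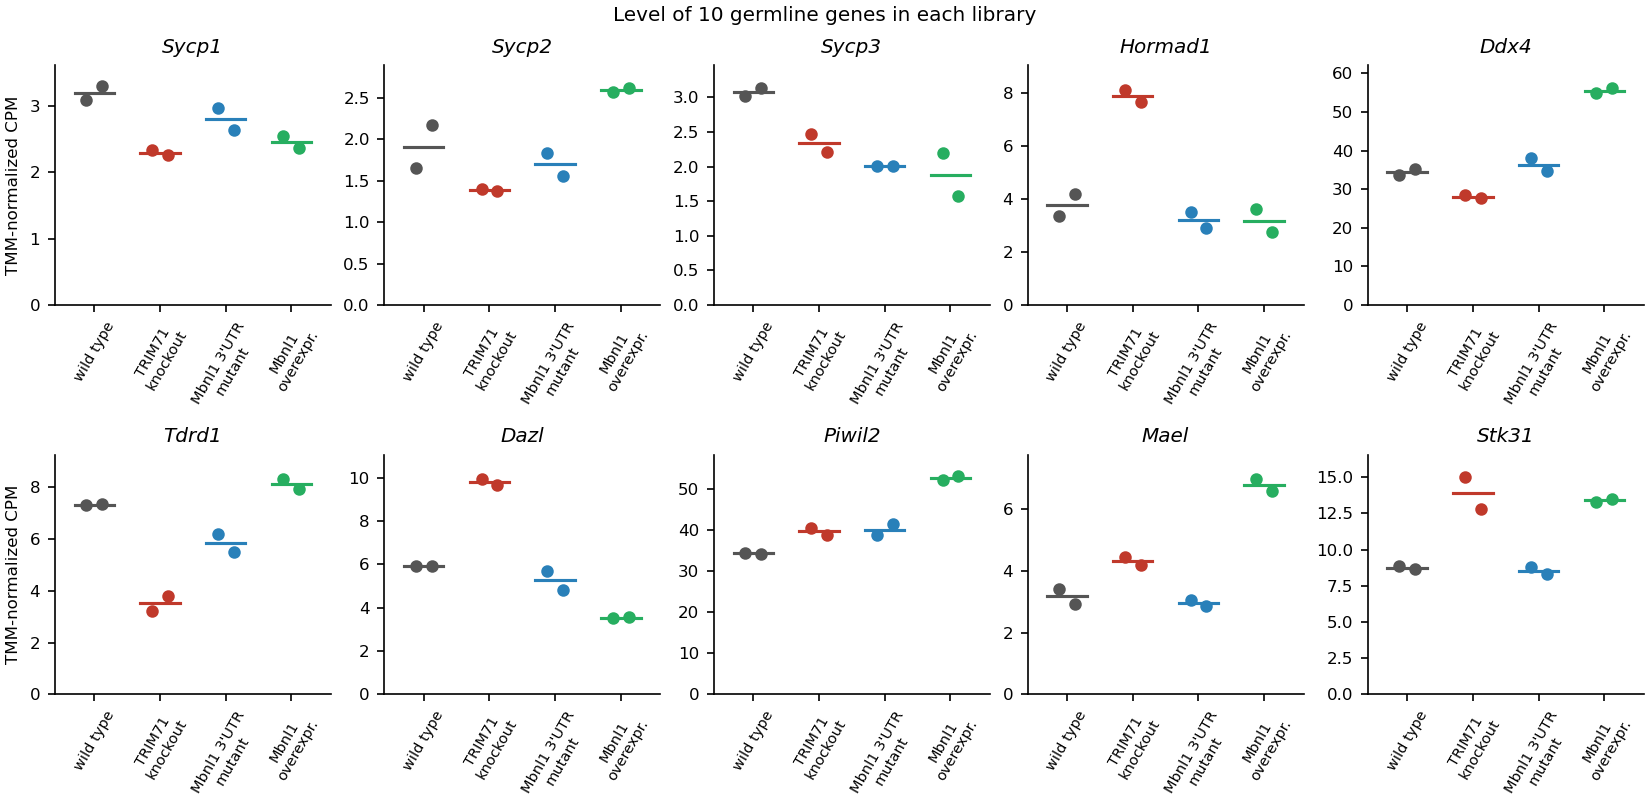
TMM-normalized CPM (y axis, from 0, with its own range in each panel) of the 10 genes in the 4 groups (x axis). Points are the 2 libraries of a group and bars their mean. Hormad1 and Dazl are highest in the knockout, Tdrd1 is lowest there, and Ddx4, Piwil2 and Mael are highest in overexpression.

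The genes are taken below by role, first the chromosome axis. Sycp1 (ENSMUSG00000027855.9, chr3:102818499-102936100, minus strand) encodes the transverse filament that bridges the axes of the synaptonemal complex. Its level was 3.09 and 3.29 CPM in the libraries of wild type, 2.33 and 2.26 in those of the knockout, 2.97 and 2.64 in those of the mutant and 2.54 and 2.37 in those with overexpression. Both wild-type libraries lay above all others. In edgeR's quasi-likelihood test, with p-values adjusted by Benjamini-Hochberg over all 18055 genes tested here and below, Sycp1 fell in the knockout (log2 change -0.47 ± 0.117 SE, adjusted p = 0.00298) and in overexpression (-0.38 ± 0.116, adjusted p = 0.0105). The mutant differed from wild type by -0.18 ± 0.115 (adjusted p = 0.327), an interval of -0.41 to 0.05 at 2 SE. The call in overexpression was lost with DESeq2 (adjusted p = 0.0526), without wild type replicate 2 (0.0662) and without overexpression replicate 2 (0.084). In the order wild type, mutant, overexpression, knockout, no neighbouring groups differed past the threshold.

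Sycp2 (ENSMUSG00000060445.7, chr2:178345293-178407685, minus strand) encodes a protein of the axial and lateral elements. It had 1.65 and 2.17 CPM in the libraries of wild type, 1.4 and 1.38 in those of the knockout, 1.84 and 1.56 in those of the mutant and 2.57 and 2.62 in those with overexpression. The wild-type libraries were further apart than those of any other group, and the mutant overlapped them. Sycp2 fell in the knockout (-0.46 ± 0.157, adjusted p = 0.0253) and rose in overexpression (0.44 ± 0.145, adjusted p = 0.0154). Both calls were lost under some alternatives. The knockout call was lost without wild type replicate 2 (log2 change -0.243, adjusted p = 0.309), without knockout replicate 1 (0.0948) or 2 (0.103) and with DESeq2 (0.0823). The overexpression call was lost without wild type replicate 1 (0.256, adjusted p = 0.209), without overexpression replicate 2 (0.0688) and with DESeq2 (0.0588). The difference between knockout and overexpression was larger (-0.90 ± 0.15, adjusted p = 6.37e-05). Neither side of it is a wild-type library, but its SE and p come from the fit to all 4 groups.

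Sycp3 (ENSMUSG00000020059.5, chr10:88459569-88473236, plus strand) encodes the partner of SYCP2 in the lateral element. Its values were 3.02 and 3.13 CPM in the libraries of wild type, 2.47 and 2.21 in those of the knockout, 2.01 and 2.01 in those of the mutant and 2.19 and 1.58 in those with overexpression. The wild-type libraries again lay above all others. Sycp3 fell with overexpression (-0.70 ± 0.143, adjusted p = 0.000413), in the mutant (-0.61 ± 0.143, adjusted p = 0.00621) and in the knockout (-0.39 ± 0.14, adjusted p = 0.03), and was the only gene of the 10 that fell in all 3. The knockout call was lost with DESeq2 (adjusted p = 0.0931) and without either library of wild type (0.0707 and 0.111) or of the knockout (0.0545 and 0.196). Sycp3 shares 660 of its 1264 exon bases with Chpt1 on the opposite strand. Chpt1 was at 8.27 and 8.24 CPM in wild type and at 12.5 and 10.4 CPM in overexpression. In these counts, noncoding genes inside an abundant host reached a median of 31.7 counts per kb when on the strand of the host and 0.551 when on the other strand.

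Hormad1 (ENSMUSG00000028109.10, chr3:95559677-95587671, plus strand) encodes a HORMA domain protein of unsynapsed axes. It was at 3.37 and 4.19 CPM in the libraries of wild type, 8.11 and 7.66 in those of the knockout, 3.52 and 2.91 in those of the mutant and 3.61 and 2.75 in those with overexpression. The knockout libraries stood apart, and the other 3 groups overlapped. Hormad1 rose 2.09-fold in the knockout (log2 change 1.06 ± 0.13, adjusted p = 1.3e-05), the opposite direction to the SYCP genes. It did not pass the test in the mutant (-0.23, adjusted p = 0.322) or in overexpression (-0.25, interval -0.53 to 0.04, adjusted p = 0.161). In overexpression a fall was called only without wild type replicate 1 (-0.393, adjusted p = 0.0496) or without overexpression replicate 1 (-0.445, adjusted p = 0.0257), of the alternatives run.

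Among the RNA-binding proteins of germ cells, Dazl (ENSMUSG00000010592.8, chr17:50279395-50293636, minus strand) encodes a regulator of translation. It was at 5.92 and 5.91 CPM in the libraries of wild type, 9.94 and 9.65 in those of the knockout, 5.72 and 4.83 in those of the mutant and 3.52 and 3.56 in those with overexpression. No 2 groups overlapped. Dazl rose 1.66-fold in the knockout (0.73 ± 0.0823, adjusted p = 1.3e-06) and fell 1.67-fold in overexpression (-0.74 ± 0.0905, adjusted p = 1.9e-06). Knockout and overexpression differed directly by 1.47 ± 0.0861 on the log2 scale (adjusted p = 1.46e-10). The mutant differed from wild type by -0.17 (interval -0.34 to 0.01, adjusted p = 0.228).

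Ddx4 (ENSMUSG00000021758.9, chr13:112598333-112652475, minus strand), the mouse Vasa homolog, encodes an RNA helicase of nuage. Its level was 33.7 and 35.2 CPM in the libraries of wild type, 28.4 and 27.8 in those of the knockout, 38.0 and 34.6 in those of the mutant and 54.9 and 56.1 in those with overexpression. Its groups were ordered in reverse to those of Dazl, with overexpression highest and the knockout lowest. Ddx4 fell 1.22-fold in the knockout (-0.29 ± 0.0498, adjusted p = 0.000116) and rose 1.61-fold in overexpression (0.69 ± 0.0485, adjusted p = 1.73e-09). Mutant and wild type overlapped (0.08, interval -0.02 to 0.17, adjusted p = 0.345).

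Of the piRNA pathway genes, Tdrd1 (ENSMUSG00000025081.9, chr19:56826209-56870012, plus strand) encodes a Tudor protein that binds PIWIL2. It was at 7.32 and 7.35 CPM in the libraries of wild type, 3.23 and 3.81 in those of the knockout, 6.18 and 5.49 in those of the mutant and 8.33 and 7.93 in those with overexpression. The knockout libraries were the lowest and the 4 groups did not overlap. Tdrd1 fell 2.09-fold in the knockout (-1.06 ± 0.0927, adjusted p = 5.56e-08) and 1.26-fold in the mutant (-0.33 ± 0.0875, adjusted p = 0.0147). The mutant call was lost without wild type replicate 1 (adjusted p = 0.065) or 2 (0.0586) and without mutant replicate 2 (0.1). In overexpression the difference of 0.15 did not pass (interval -0.02 to 0.32, adjusted p = 0.148).

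Piwil2 (ENSMUSG00000033644.4, chr14:70372477-70429383, minus strand) encodes the PIWI protein MILI, which carries piRNAs. It was at 34.4 and 34.2 CPM in the libraries of wild type, 40.5 and 38.8 in those of the knockout, 38.7 and 41.4 in those of the mutant and 52.1 and 53.1 in those with overexpression. Both wild-type libraries were below all others, and knockout and mutant overlapped. Piwil2 rose in all 3 altered groups, by 0.21 ± 0.0453 in the knockout (adjusted p = 0.00101), 0.23 ± 0.0454 in the mutant (adjusted p = 0.00194) and 0.62 ± 0.0449 in overexpression (adjusted p = 2.53e-09). Its partner Tdrd1 moved the other way in the knockout and the mutant.

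Mael (ENSMUSG00000040629.4, chr1:166201201-166238747, minus strand) encodes Maelstrom, a nuage protein needed for transposon silencing. It was at 3.43 and 2.93 CPM in the libraries of wild type, 4.45 and 4.2 in those of the knockout, 3.06 and 2.85 in those of the mutant and 7.0 and 6.6 in those with overexpression. Overexpression was highest, the knockout next, and mutant and wild type overlapped. Mael rose 1.36-fold in the knockout (0.44 ± 0.102, adjusted p = 0.00184) and 2.13-fold in overexpression (1.09 ± 0.0983, adjusted p = 3.92e-08), the highest fold of the 10 genes there.

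Stk31 (ENSMUSG00000023403.10, chr6:49395604-49469501, plus strand) encodes a germ cell protein with a Tudor and a kinase-like domain. It was at 8.84 and 8.66 CPM in the libraries of wild type, 15.0 and 12.8 in those of the knockout, 8.81 and 8.28 in those of the mutant and 13.3 and 13.5 in those with overexpression. Knockout and overexpression overlapped each other and lay above wild type and mutant, which also overlapped. Stk31 rose 1.59-fold in the knockout (0.66 ± 0.074, adjusted p = 1.06e-06) and 1.53-fold in overexpression (0.61 ± 0.0739, adjusted p = 1.58e-06). The direct difference between those groups was 0.05 (interval -0.09 to 0.19, adjusted p = 0.574).

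**Figure D3:**
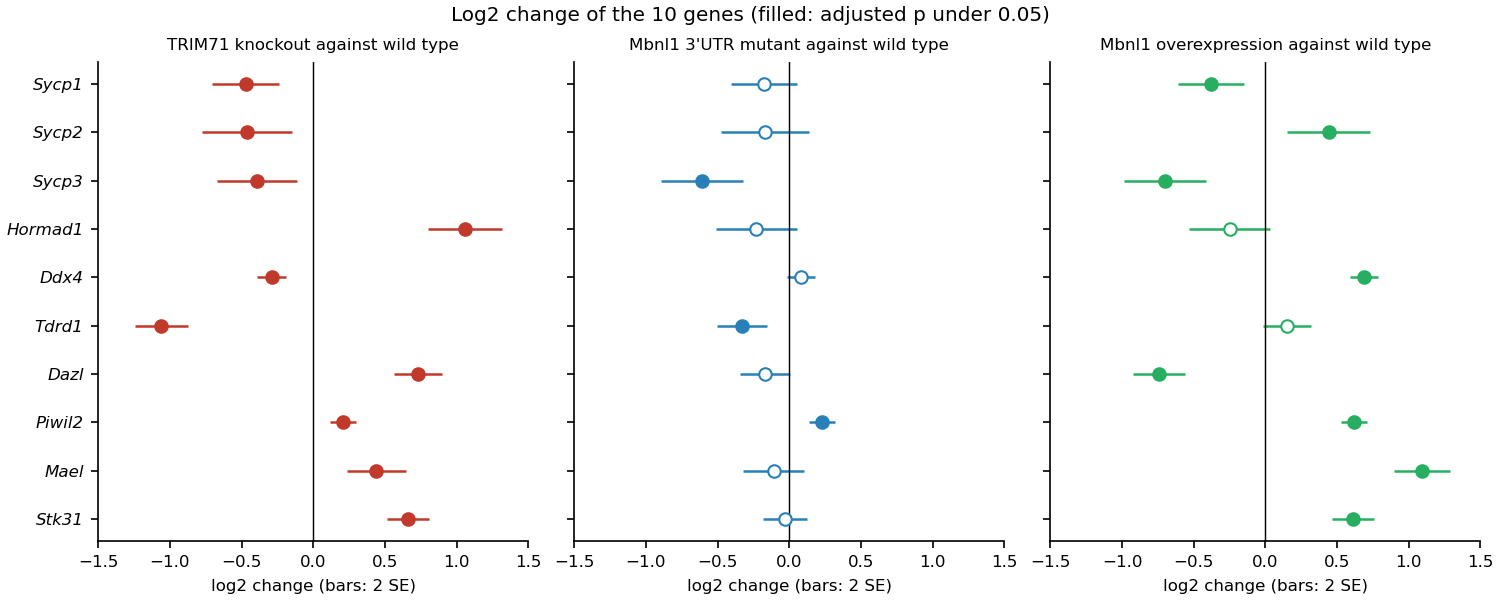
Log2 change against wild type (x axis, the same range in each panel) of the 10 genes (y axis) in the knockout, the mutant and overexpression. Bars span 2 SE to each side, and filled points passed an adjusted p of 0.05. In the knockout 5 points are filled on each side of 0, in the mutant 3 are filled in all, and in overexpression 5 are filled on the right and 3 on the left.

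In the knockout all 10 genes changed, 5 up and 5 down. Hormad1, Dazl, Stk31, Mael and Piwil2 rose, and Tdrd1, Sycp1, Sycp2, Sycp3 and Ddx4 fell. The background was high, since 45.1% of all genes tested were called in this comparison, 24.2% higher and 20.9% lower. The median log2 change of the 10 was -0.04, beside -0.01 for all genes tested. As grouped above, each role held both directions. Of the 4 axis genes 1 rose and 3 fell, and of the RNA-binding proteins Dazl rose and Ddx4 fell. Of the 4 genes taken with the piRNA pathway (Tdrd1, Piwil2, Mael and Stk31) 3 rose and Tdrd1 fell. Ddx4, a nuage protein, could also be placed with these 4, where it would be a further fall. Without the calls lost under at least 1 alternative, those of Sycp2 and Sycp3, 8 genes remain, as in the DESeq2 fit.

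In the mutant 3 of 10 genes changed: Piwil2 rose, and Sycp3 and Tdrd1 fell. Of all genes tested 16% were called, 8.32% higher and 7.69% lower. The median of the 10 was -0.17, beside -0.01 for all genes.

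In overexpression 8 of 10 genes changed. Mael, Ddx4, Piwil2, Stk31 and Sycp2 rose, and Dazl, Sycp3 and Sycp1 fell. Of all genes tested 54.8% were called, 27.7% higher and 27.2% lower. The median of the 10 was 0.30, beside -0.01 for all genes. These comparisons share the wild-type libraries, so similar changes in them are not independent.

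The altered groups were also compared directly. Between knockout and overexpression, which share no library, 7 of 10 genes differed, against 54.8% of all genes. Dazl (1.47) and Hormad1 (1.31) were higher in the knockout on the log2 scale. Tdrd1 (-1.21), Ddx4 (-0.98), Sycp2 (-0.90), Mael (-0.65) and Piwil2 (-0.41) were lower in it. Sycp1, Sycp3 and Stk31 did not pass, with intervals of -0.34 to 0.14, 0.02 to 0.60 and -0.09 to 0.19. Against the mutant, 6 of 10 genes differed in the knockout (45.7% of all genes) and 7 of 10 in overexpression (52.1% of all genes). In both of these comparisons Mael and Stk31 were higher than in the mutant: Mael by 0.55 (adjusted p = 0.00027) in the knockout and 1.2 (adjusted p = 1.75e-08) in overexpression, and Stk31 by 0.70 (adjusted p = 5.16e-07) and 0.65 (adjusted p = 9.89e-07).

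Correlations of log CPM across the 8 libraries describe how the genes moved relative to each other. They rest on 4 groups of 2 and are given without a test. The highest were Sycp2 with Ddx4 (r = 0.933), Hormad1 with Dazl (0.885) and Piwil2 with Mael (0.854). The lowest were Ddx4 with Dazl (-0.93), Tdrd1 with Dazl (-0.877) and Sycp2 with Dazl (-0.857). Sycp1 and Sycp2, parts of one structure, had an r of 0.185, and Sycp2 and Sycp3 an r of -0.286.

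Among 2584 other genes with a mean of at least 1 CPM and a spread of at least 0.3 (SD of log2 CPM), the nearest by Pearson r were as follows. The gene nearest to Dazl was the imprinted gene Peg3 (r = 0.9969), which averaged 52.1 CPM over the wild-type libraries, 76.3 over those of the knockout, 48.2 over those of the mutant and 37.1 with overexpression, followed by Ahr (0.9923). Ddx4 was nearest to Trim44 (0.9966) and Dock3 (0.9958). Sycp2 was nearest to Rell2 (0.9747) and Meioc (0.9696), which encodes a factor that holds germ cells in meiotic prophase. For Hormad1 they were Mfsd9 (0.9873) and Gstt1 (0.9855), for Stk31 Mpped2 (0.9882) and Tuba3a (0.9849), for Mael Pgap3 (0.9939) and Ppdpf (0.9934), and for Piwil2 Cbs (0.993) and Slc9a3r2 (0.9908). Tdrd1 was nearest to Smagp (0.9784) and B2m (0.9694), Sycp1 to Zfp978 (0.972) and the noncoding RNA Ftx (0.9705), and Sycp3 to Stxbp6 (0.9521) and Bmpr1b (0.9251). Each r is among the highest of 2584 over 4 groups of 2 libraries, so its size alone shows no link between genes. By Spearman's rho, only 6 of the 20 named genes were among the first 2.

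The genes beside each of the 10 on its chromosome were examined next. Sycp2 lay where most of its neighbours were also higher in overexpression: of 49 tested genes within 2 Mb, 26 were called higher and 2 lower. Their median log2 change was 0.42, beside 0.44 for Sycp2 itself and 0.32 for the 1497 tested genes of chromosome 2. In the knockout the same neighbours had a median of 0.03, while Sycp2 was at -0.46. Dazl had neighbours with a positive median in both the knockout (0.32, 19 genes) and overexpression (0.22), while Dazl itself was at 0.73 and -0.74. In overexpression 5 of these neighbours were called higher and 4 lower, and the median was 0.04 within 1 Mb and 0.17 within 5 Mb. Mael (1.09 in overexpression) had neighbours at -0.06, and Stk31 (0.61) at -0.04. Hormad1, at 1.06 in the knockout, had 112 neighbours with a median of 0.01. The part of the chromosome in the change of Sycp2 was not tested.

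**Figure D4:**
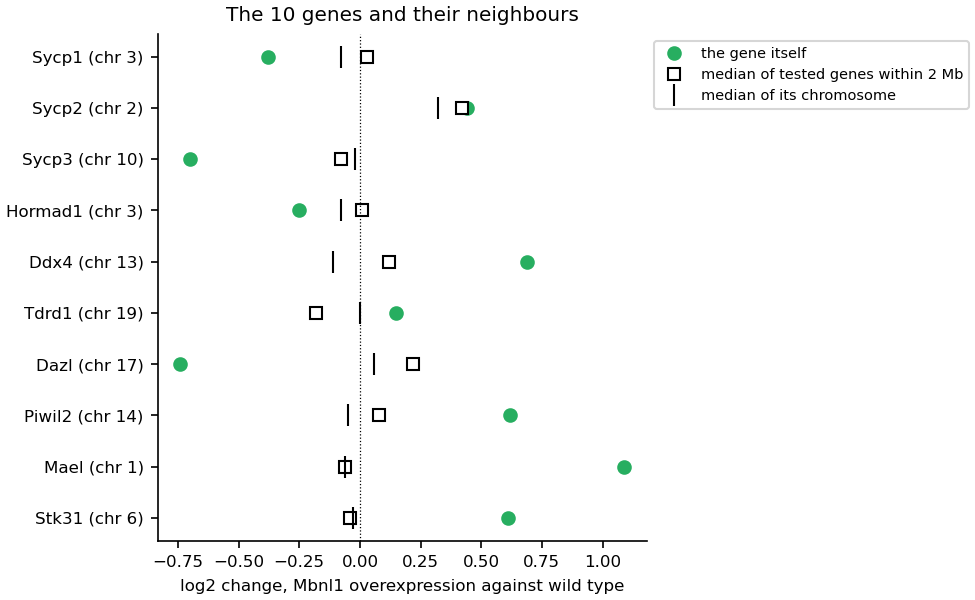
Log2 change in overexpression against wild type (x axis) of each of the 10 genes (y axis, with its chromosome), of the median tested gene within 2 Mb (squares) and of the median tested gene on the chromosome (bars). Sycp2 lies at 0.44 next to a neighbour median of 0.42, while Ddx4, Piwil2, Mael and Stk31 lie to the right of theirs.

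Other genes of the same processes gave a wider view. Of the other axis and synaptonemal complex genes, 10 of 11 were tested: 5 were higher and 2 lower in the knockout, 1 was higher and 1 lower in the mutant, and 6 were higher and none lower in overexpression. Their medians were 0.45, 0.00 and 0.60 on the log2 scale. In all, 70%, 20% and 60% of them were called, against 45.1%, 16% and 54.8% of all genes tested. Hormad2, a relative of Hormad1, was at 2.43 and 2.41 CPM in wild type and at 8.68 and 8.38 in the knockout, a rise of 1.81 ± 0.101 (adjusted p = 1.77e-10). Like Hormad1, it did not pass in overexpression (-0.27, adjusted p = 0.0547). Stag3, a meiotic cohesin subunit, rose in the knockout (0.52, adjusted p = 3.72e-07) and in overexpression (0.96, adjusted p = 5.82e-11) and fell in the mutant (-0.42, adjusted p = 3.29e-05). Syce1, of the central element, rose in all 3 groups, by 0.39 (adjusted p = 0.00018), 0.41 (adjusted p = 0.000397) and 0.84 (adjusted p = 8.74e-09). Smc1b, another cohesin subunit, rose in the knockout (0.97, adjusted p = 7.88e-05).

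Of the recombination genes, 17 of 21 were tested. In the knockout 5 were higher and 1 lower, in the mutant 1 and 1, and in overexpression 7 and 1, with medians of 0.17, -0.14 and 0.42. The shares called, 35.3%, 11.8% and 47.1%, were below those of all genes tested (45.1%, 16% and 54.8%). Tex11, which acts in crossover formation, was at 4.4 and 5.15 CPM in the libraries of wild type, 12 and 11.7 in those of the knockout and 12.9 and 13.1 in overexpression (1.31, adjusted p = 3.4e-10, and 1.45, adjusted p = 3.25e-11). Hfm1, a helicase of the same step, fell in the knockout (-0.69, adjusted p = 0.00126). Mnd1 fell in the mutant (-0.16, adjusted p = 0.0299) and in overexpression (-0.57, adjusted p = 2.34e-08), while its partner Psmc3ip rose in the knockout (0.18, adjusted p = 0.0197) and in overexpression (0.46, adjusted p = 3.45e-06). Rec114, a cofactor of meiotic break formation named here after its values were seen, was at 0.101 and 0.053 CPM in wild type and at 3.35 and 2.43 CPM in the knockout (5.19 ± 0.315, adjusted p = 5.42e-10). It also rose in overexpression, where it had 0.312 and 0.184 CPM (1.66 ± 0.474, adjusted p = 0.00638). Spata22 and Ankrd31 were not analysed here. The knockout count of 6 was 3 without wild type replicate 1 and without knockout replicate 2. The overexpression count of 8 was 5 without wild type replicate 1 and 4 with genes under 1 CPM left out.

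Of the 6 genes of meiotic entry, all tested, 1 was higher and 2 lower in the knockout, and 4 were higher in overexpression. These are 50% and 66.7% of the list, beside 45.1% and 54.8% of all genes tested. Meioc fell in the knockout (15.2 and 17.4 CPM in wild type against 10.4 and 9.98, log2 change -0.68, adjusted p = 3.24e-05) and rose in overexpression (26.2 and 23.9 CPM, 0.62, adjusted p = 2.75e-05). Gm4969, the symbol here of Meiosin, did likewise (-0.66, adjusted p = 0.0175, and 0.58, adjusted p = 0.0141). In the mutant 0 passed with edgeR and 0 with DESeq2, and 2 had an unadjusted p under 0.05. The overexpression count of 4 was 2 with DESeq2, without wild type replicate 1 and without overexpression replicate 2.

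Of the other piRNA and germ granule genes, 19 of 21 were tested. In the knockout 5 were higher and 8 lower, in the mutant 1 and 5, and in overexpression 6 and 8, with medians of -0.15, -0.21 and -0.04. Shares called were 68.4%, 31.6% and 73.7%, against 45.1%, 16% and 54.8% of all genes tested. Piwil4, a nuclear PIWI protein of fetal germ cells, fell in all 3: 7.03 and 7.28 CPM in the libraries of wild type, 2.85 and 3.02 in those of the knockout (-1.28, adjusted p = 9.33e-09), 3.81 and 3.92 in those of the mutant (-0.89, adjusted p = 3.62e-06) and 2.09 and 1.81 with overexpression (-1.88, adjusted p = 5.55e-11). Its change was opposite in sign to that of Piwil2 in each. Tdrd12, a Tudor protein that acts in piRNA production, also fell in all 3 (-0.49, adjusted p = 2.04e-07; -0.34, adjusted p = 6.9e-05; -1.54, adjusted p = 8.63e-14). Gpat2, a mitochondrial acyltransferase relative that binds PIWIL2, rose in the knockout (1.88, adjusted p = 1.17e-07) and in overexpression (2.20, adjusted p = 5.6e-09). Dnmt3l, the cofactor of de novo DNA methylation, was at 170 and 146 CPM in wild type, 41.4 and 42.1 in the knockout (-1.92, adjusted p = 1.89e-06) and 37.8 and 42.4 in overexpression (-1.98, adjusted p = 9.36e-07).

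**Figure D5:**
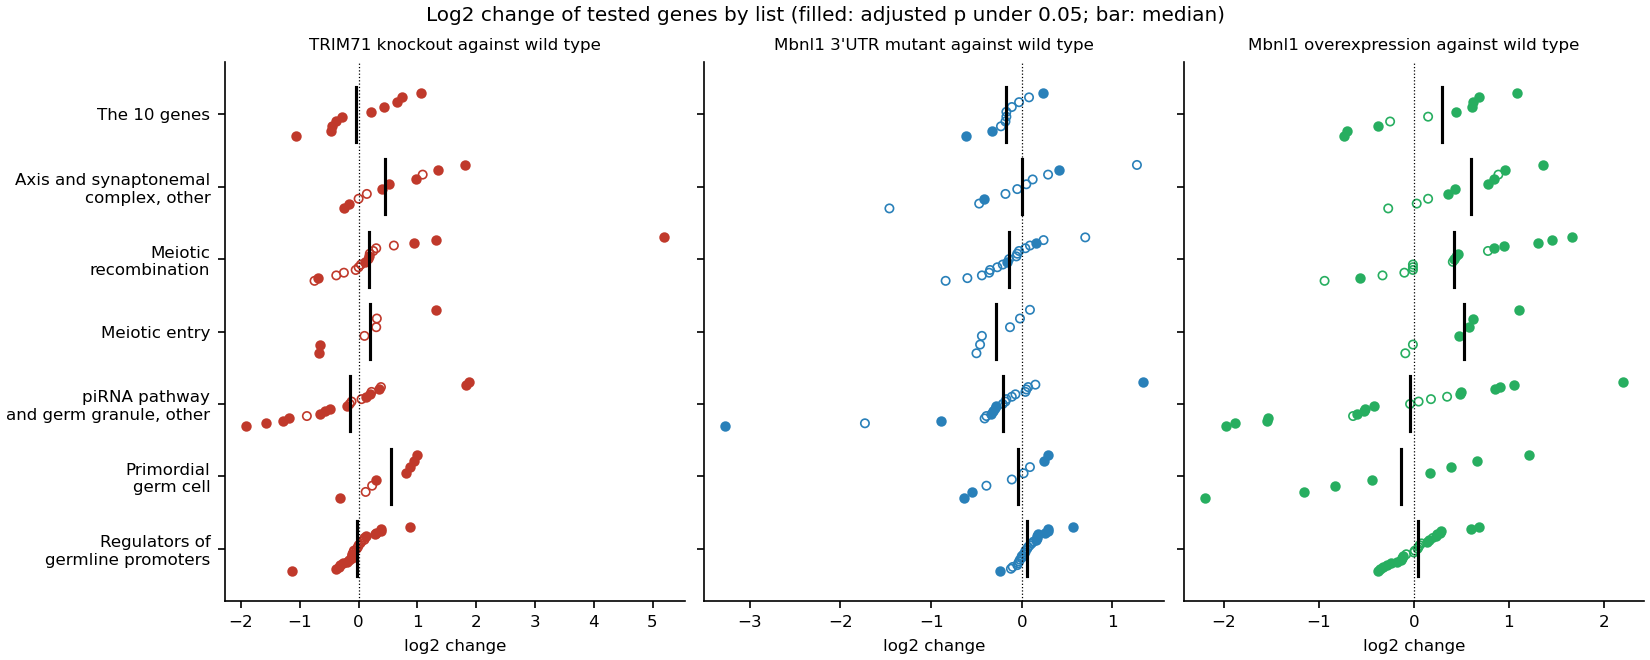
Log2 change against wild type (x axis, a different range in each panel) of every tested gene of the 10 genes and of 6 related lists (y axis). Filled points passed an adjusted p of 0.05 and bars are medians. The 10 genes lie on both sides of 0 in each panel, and the median of the other axis and synaptonemal complex genes is at 0.45 in the knockout and 0.60 in overexpression.

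Primordial germ cell genes moved in both directions. Of 9 listed genes 8 were tested. In the knockout 5 were higher and 1 lower, in the mutant 2 and 2, and in overexpression 4 and 4. That is 75%, 50% and 100% of those tested, against 45.1%, 16% and 54.8% of all genes. Tfap2c, a transcription factor of germ cell specification, was at 29.8 and 27 CPM in the libraries of wild type, 54.0 and 55.2 in those of the knockout (0.94, adjusted p = 3.52e-10), 18.8 and 17.6 in those of the mutant (-0.64, adjusted p = 5.01e-07) and 13.3 and 12.2 with overexpression (-1.16, adjusted p = 2.54e-11). Prdm1 fell in all 3, most in overexpression (16.1 and 15.1 CPM in wild type against 3.44 and 3.34, -2.20, adjusted p = 5.39e-14). Kit rose in all 3 (0.88, 0.29 and 1.21, adjusted p = 2.03e-10, 0.000549 and 1.17e-12), as did Prdm14 (0.81, 0.25 and 0.17, adjusted p = 9.3e-10, 0.00263 and 0.00899).

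The list of regulators of germline promoters holds 25 genes, all tested: PRC1.6 subunits, DNA and histone methylation enzymes and their partners, the histone demethylase gene Kdm5c, and Tet1, Tet2 and Tet3, which act against DNA methylation. Counts over it therefore mix silencers with their opponents. In the knockout 6 were higher and 9 lower, in the mutant 8 and 1, and in overexpression 8 and 9, and their medians were -0.03, 0.06 and 0.04. Called were 60%, 36% and 68% of the list, beside 45.1%, 16% and 54.8% of all genes tested. Dnmt3a, a de novo DNA methyltransferase, fell in the knockout from 106 and 115 CPM to 50.1 and 49.9 (-1.14, adjusted p = 7.58e-13) and in overexpression (-0.33, adjusted p = 1.45e-06). Tet2, which oxidizes methylated cytosine, rose in all 3 groups (0.87, 0.56 and 0.69, adjusted p = 7.69e-12, 1.28e-08 and 4.42e-11). Tet1 instead fell in the knockout (-0.32) and rose in the mutant (0.16) and overexpression (0.29). Uhrf1 rose in all 3 (0.29, 0.26 and 0.14), while Dnmt3b fell in all 3 (-0.38, -0.24 and -0.28). Dnmt1 rose in the mutant (0.29) and did not pass in the knockout (-0.03) or overexpression (0.08). Max, the partner of MGA at the E-box, fell in overexpression (-0.38, adjusted p = 8.64e-07). Mga fell in the knockout (-0.33) and overexpression (-0.11) and rose in the mutant (0.18). E2f6 rose in overexpression (0.24), and Tfdp1 fell in the knockout (-0.11) and overexpression (-0.18). Ring1, a ubiquitin ligase of the complex, at 7.11 and 7.52 CPM in wild type, rose in all 3 groups (0.38, 0.29 and 0.60, adjusted p = 0.000541, 0.0146 and 2.78e-06). Rnf2, also on this list and at 236 and 237 CPM in wild type, passed in none (0.10, 0.13 and 0.04). The part of these regulators in the changes of the 10 genes was not tested.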

How the data were processed

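Total RNA was sequenced on a stranded protocol with 75 nt paired-end reads, per the labels' protocols, in 8 libraries. Alignment used STAR 2.5.0 and mm10, per the submitters' processing notes. The deposited values are the authors' raw read counts per gene, with no normalization. The sources used here do not give the annotation release or the strand setting. Of 43346 genes, 42462 matched GENCODE positions by identifier, and 27979 had a count. The 10 genes, the gene lists, the markers and the motifs were chosen with earlier results of these data known.

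In R 4.3.3, edgeR 4.0.16 kept 18055 genes (filterByExpr, minimum count 10 and total 15), scaled by TMM and fitted 1 robust quasi-likelihood model to all 4 groups. The fit had 4 residual degrees of freedom. The biological coefficient of variation was 4.172%. Genes were called at a Benjamini-Hochberg adjusted p under 0.05. With 2 libraries against 2, the smallest p of an exact permutation is 0.333, so none was run. SE was taken as the log2 change over the square root of F, and intervals span 2 SE to each side. On data simulated for the knockout comparison (17555 genes), the procedure called 64% of changes of 1.25 times and 88% at 1.5 times. It called 98% at 2 times and 100% at 4 times (50 genes each), and 15 of 190 calls were false. The simulation changed only a small part of the genes, all above 1 CPM in wild type. In the data 45.1% of genes were called in this comparison, so these rates need not hold there. Libraries with the same replicate number did not deviate together across groups (r from -0.0343 to 0.06). Alternatives were DESeq2 1.42.0, other scalings and filters, a replicate block, fits of 2 groups and leaving out each library.

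Besides the 10 genes, Trim71 and Mbnl1, the text names up to 4 genes per list. These had the largest called changes against wild type, at least 1 CPM on average, and a change in the same direction in each library of the group relative to each wild-type library. For each of the 10, the text names the 2 genes with the highest Pearson r. Genes with values given outside these rules are Rec114, Chpt1, Foxa2, Thy1, Col1a2, Col3a1, Mga, E2f6, Tfdp1, Rnf2, Tet1, Uhrf1, Dnmt3b and Dnmt1.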

Additional observations from a re-analysis of the deposited data

How the results depend on the processing

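The counts of the 10 genes changed stayed within 1.5 times under every alternative run, and with the replicate block they were 10, 3 and 8 against wild type and 6, 7 and 7 in the direct comparisons, as without it. The block changed the call of none of the 10 against wild type. The number of all genes called in the mutant was 2891, and 1883 to 3333 over the fits that left out 1 library, lowest without wild type replicate 1 and highest without mutant replicate 2. Log2 changes that turned sign were all in the mutant and none was called: leaving out 1 library gave -0.352 to 0.0473 for Sycp2, -0.216 to 0.0134 for Mael and -0.0784 to 0.0118 for Stk31. Under 4 scalings or tools, the share of calls that were higher in the mutant was 52% (TMM), 56.4% (median-ratio size factors), 44.2% (library size only) and 61.6% (DESeq2). By Spearman's rho, 6 of the 20 nearest genes were among the first 2 (rho 0.881 to 1). Over windows of 1 and 5 Mb, 43 of 60 neighbour medians moved by more than the spread between libraries. With 2 libraries a group, calls against wild type that changed under at least 1 alternative were those of Sycp2 and Sycp3 in the knockout, Tdrd1 in the mutant, and Sycp1, Sycp2 and Hormad1 in overexpression.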
